A study of Mus musculus with 12 samples.

Results

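Solute carrier family 22 genes of the mouse kidney were followed in whole-kidney RNA-seq libraries. The 9 members are Slc22a2, Slc22a4, Slc22a5, Slc22a6, Slc22a7, Slc22a8, Slc22a12, Slc22a13 and Slc22a19. They were chosen by gene symbol out of 24421 symbols in the deposited expression matrices, with earlier results of these data known. Where a symbol had several transcripts, the one with the largest total over the libraries was used. The 12 libraries came from male C57BL/6 mice at 6 weeks of age, 3 for each of 4 groups, with 1 kidney per library. WT baseline and Tet2-/- baseline kidneys came from mice without an operation. WT IR and Tet2-/- IR kidneys were collected 24 h after the right renal pedicle had been clamped for 60 min and the left kidney had been removed, so any IR effect also holds the surgery, the nephrectomy and the single remaining kidney. No sham library was analysed here. The knockout was carried by every cell of the mouse, with no Cre or cell type restriction, and Tet2 encodes a dioxygenase that oxidises 5-methylcytosine in DNA. The comparisons asked how these transporter genes differed between genotypes before and after ischemia-reperfusion (IR).

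Slc22 proteins are membrane transporters that carry organic anions, cations and zwitterions, and the proximal tubule is their main site in the kidney. The basolateral members take drugs, toxins and metabolites from blood into the tubule cell, and apical carriers then secrete them into urine or recover useful ones from it. Slc22a6 (OAT1) and Slc22a8 (OAT3) are basolateral organic anion exchangers that are driven by dicarboxylates, Slc22a7 (OAT2) and Slc22a19 (OAT5) are further organic anion transporters, and Slc22a2 (OCT2) is the basolateral organic cation transporter. Slc22a4 (OCTN1) carries ergothioneine and Slc22a5 (OCTN2) is the sodium-dependent carnitine transporter. Slc22a12 (URAT1) and Slc22a13 (OAT10) are apical exchangers that take up urate, and the latter also nicotinate.

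The members lie in a few places of the genome, given here as in the files on mm9. Chromosome 19 holds 4 of them, namely Slc22a12 (NM_009203, chr19:6535856-6543070, minus strand), Slc22a19 (NM_144785, chr19:7747566-7785800, minus strand), Slc22a8 (NM_001164635, chr19:8667672-8686325, plus strand) and Slc22a6 (NM_008766, chr19:8692486-8702789, plus strand). Slc22a8 and Slc22a6 are direct neighbours with 6161 bp between them. Chromosome 17 holds Slc22a2 (NM_013667, chr17:12777055-12821354, plus strand) and, at a distance, Slc22a7 (NM_144856, chr17:46569134-46575426, minus strand). Slc22a5 (NM_011396, chr11:53678044-53705205, minus strand) and Slc22a4 (NM_019687, chr11:53796628-53841592, minus strand) lie 91423 bp apart, and Slc22a13 (NM_133980, chr9:119102096-119118223, minus strand) stands on chromosome 9. Each interval spans the whole transcript from first to last exon. All 9 passed the filter on low counts in every comparison.

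Reads of near-identical copies may be split between genes. Within the family the closest match was between Slc22a13 and the pseudogene Slc22a13b-ps, which lies 11386 bp away and whose annotated transcript was 98.7% identical over 1058 bases. The pseudogene held between 55.5 and 300.0 counts per library, and Slc22a13 fell to 145 counts in its lowest library, so its lowest values are the least certain. Other best matches within the family were 88.8% for Slc22a5 with Slc22a21, 78.3% for Slc22a4 with Slc22a5 and 77.0% for Slc22a19 with Slc22a27. No member overlapped another gene of the files. In the annotation used here, 1 transcript of the opposite-strand gene Nrxn2 shared 669 bases with Slc22a12 without a mismatch, and whether the counting used strand was not given in the sources used here. Nrxn2 itself had 509.5 to 4610.0 counts per library, against at least 36669 for Slc22a12.

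Promoter sequences are printed for the neighbouring pair Slc22a8 and Slc22a6 and for Slc22a13 and Slc22a19, each of which was the nearest gene in profile to the other over the 12 libraries. The tables of RefSeq promoters (GRCm38.p6) matched 8 of the 9 members by symbol, all but Slc22a7. Each sequence is the 250 bases before the transcript start, 5′ to 3′ on the strand of the gene. Capitals mark the letters GTTAAT, a half-site of the HNF1 motif, searched on both strands together with its reverse ATTAAC.
Slc22a8, chr19:8592932-8593181, plus strand: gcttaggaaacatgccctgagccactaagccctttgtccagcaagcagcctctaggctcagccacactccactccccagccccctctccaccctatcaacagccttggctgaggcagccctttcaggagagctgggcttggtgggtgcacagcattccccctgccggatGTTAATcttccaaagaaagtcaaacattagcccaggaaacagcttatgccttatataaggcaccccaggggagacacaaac
Slc22a6, chr19:8617746-8617995, plus strand: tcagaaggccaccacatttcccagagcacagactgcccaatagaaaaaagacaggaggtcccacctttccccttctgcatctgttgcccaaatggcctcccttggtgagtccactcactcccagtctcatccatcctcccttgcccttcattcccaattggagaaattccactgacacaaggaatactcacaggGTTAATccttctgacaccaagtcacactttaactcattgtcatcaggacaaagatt
Slc22a13, chr9:119209106-119209355, minus strand: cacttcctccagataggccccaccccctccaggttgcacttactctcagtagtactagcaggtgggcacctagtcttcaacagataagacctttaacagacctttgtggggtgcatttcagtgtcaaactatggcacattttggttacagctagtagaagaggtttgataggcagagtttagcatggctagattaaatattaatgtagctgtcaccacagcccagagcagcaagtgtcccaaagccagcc
Slc22a19, chr19:7711311-7711560, minus strand: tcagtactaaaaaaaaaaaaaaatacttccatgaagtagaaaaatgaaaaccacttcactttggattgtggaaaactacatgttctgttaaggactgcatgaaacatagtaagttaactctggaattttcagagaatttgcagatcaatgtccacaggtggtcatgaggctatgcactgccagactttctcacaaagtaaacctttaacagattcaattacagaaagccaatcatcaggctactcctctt
The HNF1 half-site was found in 2 of the 8 member promoters, those of Slc22a8 and Slc22a6, starting 81 and 56 bases before the transcript start. It was present in 6.43% of all 32851 promoters of the same length. The core CAAAGTCCA of the HNF4 motif (reverse TGGACTTTG) was in 0 of the 8 and in 0.3835% of all promoters. Base composition divided the members. The promoters of Slc22a5 and Slc22a4 had a GC content of 73.6% and 71.2% with 30 and 26 CpG dinucleotides. The other 6 had 35.6% to 55.2% GC and at most 6 CpG, and the 4 printed above had 1 or 0. Over all promoters the medians were 52.4% GC and 6 CpG.

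The libraries held 51007362 to 107969879 counts on 1 transcript per gene. The Tet2 transcript was not lower in Tet2-/- than in WT kidneys at baseline. It had 9.15, 6.25 and 7.33 FPKM in WT and 9.24, 16.6 and 10.3 FPKM in Tet2-/- kidneys, so every Tet2-/- library lay above every WT library, without passing the test (adjusted p = 0.320 by edgeR). After IR it was 9.34, 3.97 and 3.85 FPKM against 2.64, 3.20 and 1.76 FPKM (adjusted p = 0.0690). Counts over the whole transcript may include parts outside the deleted sequence, so this does not check the genotype, and Tet2-/- stands below for the libraries so labelled. Proximal tubule markers were high in all baseline libraries. The 4 adipocyte markers summed to 34.9 and 111 FPKM in WT baseline replicates 2 and 3 and to 123 FPKM in Tet2-/- IR replicate 3, against at most 2.53 FPKM in the other 9 libraries, and counts of members that change without these 3 libraries are given with each comparison.

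Without an operation the summed FPKM of the 9 genes was 1280 to 1413 in WT and 1588 to 1648 in Tet2-/- kidneys. After IR it was 1282 to 1727 in WT and 451 to 878 in Tet2-/- kidneys, below every other library. The order of levels, compared as FPKM, which is per transcript length, was led by the urate transporter Slc22a12 in every group. In WT baseline kidneys Slc22a12 (524 ± 67.7 FPKM, SD, n = 3) stood above Slc22a6 (242 ± 9.80) and Slc22a6 above Slc22a2 (172 ± 2.89) without overlap. Slc22a7 (148 ± 83.2), Slc22a19 (77.6 ± 13.6), Slc22a5 (71.5 ± 11.4), Slc22a8 (60.6 ± 21.2) and Slc22a13 (38.3 ± 6.41) followed, each overlapping its neighbour, and Slc22a4 (26.8 ± 4.61) was lowest. In Tet2-/- IR kidneys Slc22a12 (259.9 ± 91.0) overlapped Slc22a6 (201 ± 113), followed without overlap by Slc22a2 (58.5 ± 10.04) and Slc22a5 (42.5 ± 9.20). Slc22a4 (16.4 ± 2.36), Slc22a8 (14.5 ± 7.16), Slc22a7 (9.77 ± 6.65), Slc22a19 (6.85 ± 4.93) and Slc22a13 (3.08 ± 2.74) closed the order, each overlapping the next. The carnitine and ergothioneine carriers thus moved up in the order while the organic anion transporters Slc22a7 and Slc22a19 moved down.

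**Figure D1:**
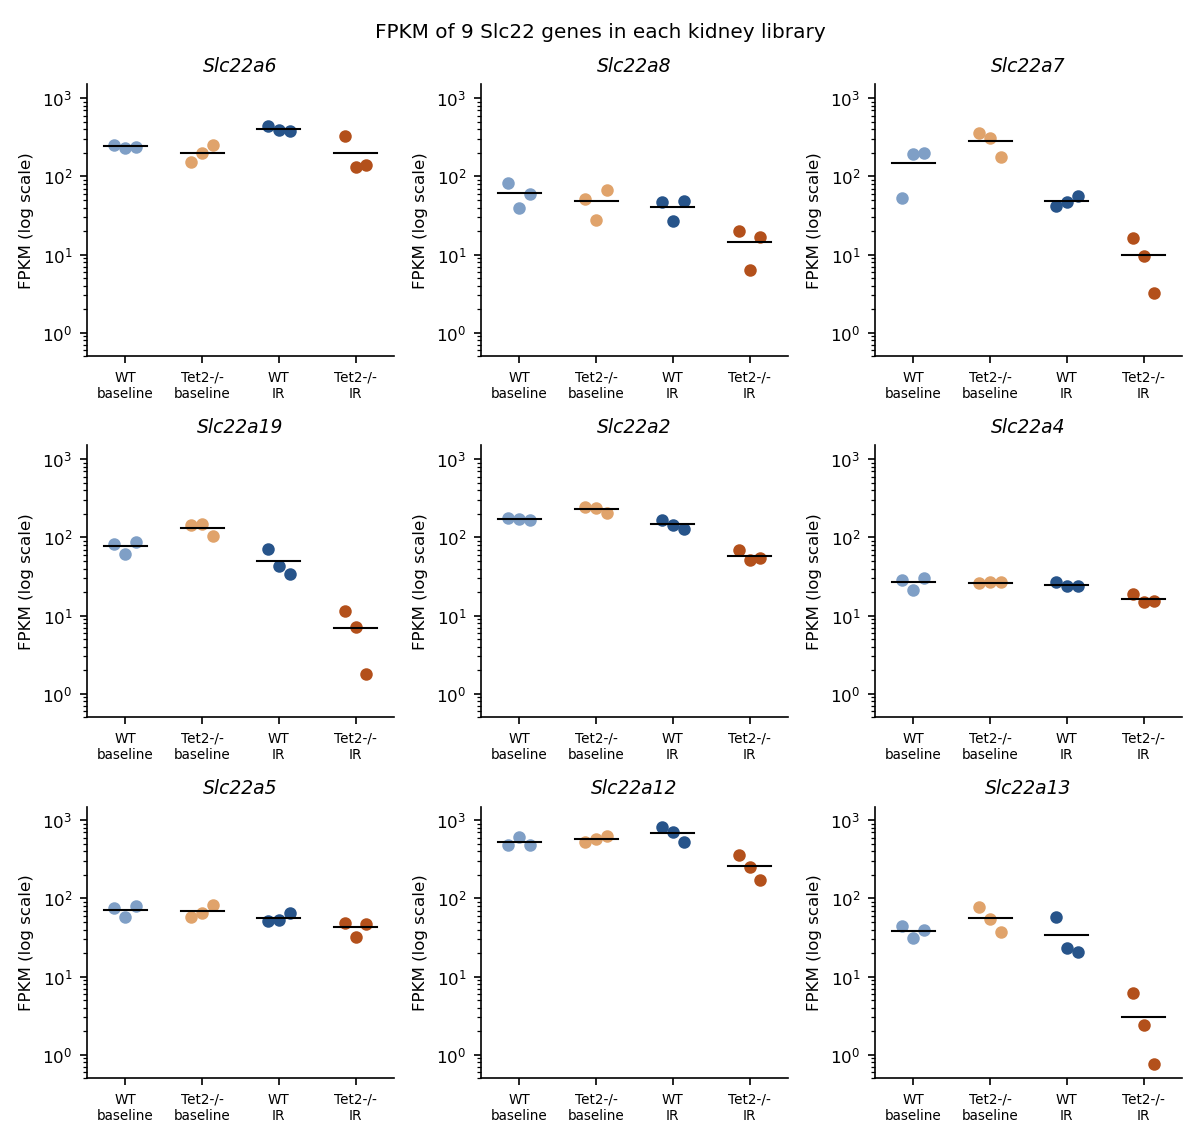
FPKM of each of the 9 genes on a log axis, 1 point per library and a line at the mean of each group of 3. In Tet2-/- IR libraries all 9 genes lie below every WT IR library, with the widest gaps for Slc22a13, Slc22a19 and Slc22a7.

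In WT kidneys IR changed no member past the limits (edgeR, adjusted p under 0.05 with a log2 fold change above 1 or below −1), where 0.887% of 16015 tested genes were called lower and 1.46% higher. The anion exchanger Slc22a6 was higher in 3 of 3 IR libraries than in any baseline library, and Slc22a2 was lower in 3 of 3, while 18.9% of all genes were higher and 10.4% lower without overlap. The median log2 fold change was −0.30 over the members and −0.03 over all genes tested. Without adjustment 3 members had a p under 0.05 (Slc22a6, Slc22a7 and Slc22a19), as had 22.7% of all genes, and DESeq2 called 1, Slc22a7, and 6.13% of all genes. With the replicate number as a block, used because same-numbered libraries deviated together here, 1 member was called, Slc22a7 at a log2 fold change of −1.48 (adjusted p = 0.0398 by edgeR), where 6.16% of all genes were called. Slc22a7 also passed without WT baseline replicate 1 (−2.08) and Slc22a19 without WT IR replicate 1 (−1.07).

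In kidneys labelled Tet2-/-, IR lowered 6 of the 9 members: Slc22a7, Slc22a19, Slc22a13, Slc22a2, Slc22a8 and Slc22a12, with log2 fold changes from −5.12 to −1.42. Of 16358 tested genes 11.6% were called lower, or 1896 genes, and 12.7% higher, or 2078 genes. When only library sizes were used for scaling, these were 1397 lower and 2860 higher, the median of all genes moved from 0.04 to 0.27, and 6 members were again called lower. Slc22a4 and Slc22a5 passed the adjusted p but not the fold limit, and Slc22a6 passed neither; 20.3% of all genes were lower at an adjusted p under 0.05 whatever the fold. In FPKM, 8 of 9 members, all but Slc22a6, were lower in every IR library than in every baseline library, as were 17.9% of all genes. The median log2 fold change was −2.00 over the members against 0.04 over all genes. Slc22a4 also passed the fold limit without Tet2-/- IR replicate 1 (−1.08), and Slc22a5 without Tet2-/- baseline replicate 1 (−1.06) or without Tet2-/- IR replicate 1 or 3 (both −1.05), the last of these being the library with adipocyte genes.

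At baseline no member differed between genotypes past the limits (edgeR), where 0.0124% of 16086 genes were called. DESeq2 also called 0 members, and 1.99% of all genes. The unadjusted p was under 0.05 for 3 members, Slc22a13, Slc22a19 and Slc22a2, all with higher mean FPKM in the Tet2-/- libraries, and for 11.8% of all genes. The cation transporter Slc22a2 and the anion transporter Slc22a19 were higher in 3 of 3 Tet2-/- baseline libraries without overlap, as were 3.06% of all genes. The median log2 difference was 0.24 over the members and 0.00 over all genes.

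After IR, 5 of 9 members were lower in Tet2-/- than in WT kidneys (edgeR): Slc22a13, Slc22a19, Slc22a7, Slc22a12 and Slc22a2, with log2 differences from −3.55 to −1.41, where 3.85% of 16186 genes were called lower. All 9 were lower in FPKM in every Tet2-/- IR library than in every WT IR library, as were 14.6% of all genes. The median log2 difference was −1.49 over the members and 0.04 over all genes. Slc22a4 passed the adjusted p but not the fold limit, and by the adjusted p alone 6.17% of all genes were lower. DESeq2 called 7, adding Slc22a6 and Slc22a8, with 10.2% of all genes called in either direction against 6.15% by edgeR. The count rested on single libraries. Without WT IR replicate 1, WT IR replicate 3 or Tet2-/- IR replicate 2, 1 member was called, where 1.79%, 2.3% and 3.28% of all genes were called in either direction. Without WT IR replicate 2, 2 members and 5.71% of all genes were called. Without Tet2-/- IR replicate 3, the one library with adipocyte genes in this comparison, 3 members and 3.95% of all genes were called, and without Tet2-/- IR replicate 1, 5 members and 2.41%. The fit without Tet2-/- IR replicate 1 newly called Slc22a6 and lost Slc22a19, so no fit with a library left out called all 5 members named above. Slc22a12 and Slc22a19 were each lost in 5 of 6 fits, and Slc22a7 and Slc22a13 in 4 of 6. Slc22a2 was called in each of these 6 fits, and the adjusted p of the others that were lost lay between 0.0506 and 0.0974.

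The difference between the IR effects of the genotypes was tested as an interaction over the 12 libraries, called at an adjusted p under 0.05. It was negative for 5 of 9 members (edgeR): Slc22a13, Slc22a19, Slc22a7, Slc22a2 and Slc22a12, with values from −4.15 to −1.69. Of 16741 genes 5.38% were called negative, or 901 genes against 633 positive, and with library sizes alone 700 negative against 1129 positive. The member median was −1.69 and that of all genes 0.10. Leaving out 1 library gave 4 to 7 members and 4.1% to 12% of all genes in either direction, against 9.16% with all 12, and the interaction of Slc22a7 was lost without Tet2-/- baseline replicate 1 (adjusted p = 0.0599) or 2 (adjusted p = 0.0510) or WT IR replicate 3 (adjusted p = 0.0595). Without the 3 libraries with adipocyte genes, which leaves 1 WT baseline library and 2 Tet2-/- IR libraries, 0 were called, against 3 of 17166 genes, with 9 libraries in the fit and log2 values of the 5 between −4.55 and −1.65. These 5 comparisons share libraries, so their calls are not independent of one another. A lower level in a whole kidney may mean fewer cells of a type or less RNA per cell, which cannot be told apart here.

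**Figure D2:**
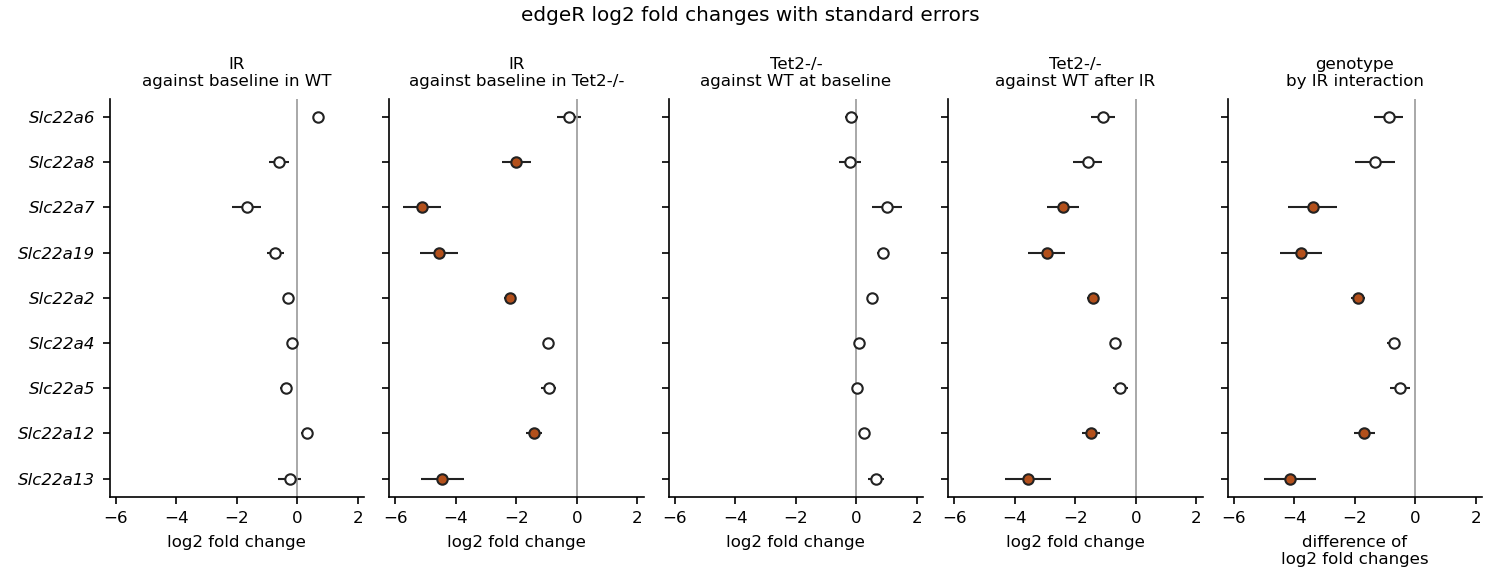
Fitted log2 fold changes of the 9 genes (x axis) in the 4 comparisons and, at the right, the interaction, with bars of 1 standard error. Filled points passed the limits, which was the case for 0 genes in WT after IR, 6 in Tet2-/- after IR, 0 between genotypes at baseline, 5 between genotypes after IR and 5 in the interaction.

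Slc22a6, the basolateral exchanger OAT1, had the smallest IR change of the members in Tet2-/- kidneys. It had 253, 234 and 238 FPKM in WT baseline and 151, 198 and 253 FPKM in Tet2-/- baseline libraries. After IR it had 439.6, 391 and 377 FPKM in WT and 331, 131 and 139 FPKM in Tet2-/- libraries. All WT IR libraries lay above all others, and Tet2-/- IR replicate 1 stood apart from the other 2 of its group. The log2 fold change with IR was 0.67 (SE 0.15, adjusted p = 0.0655) in WT and −0.26 (SE 0.40, adjusted p = 0.628) in Tet2-/- kidneys, neither past the limits. After IR the genotypes differed by −1.10 (SE 0.39, adjusted p = 0.122), which became −1.67 (adjusted p = 0.0399) without Tet2-/- IR replicate 1. Its share of the summed FPKM of the 9 genes was 9.18% to 19.7% at baseline, 25.5% to 29.4% in WT IR and 25.9% to 37.7% in Tet2-/- IR libraries.

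Slc22a8, OAT3, is the genomic neighbour of Slc22a6. It had 82.1, 39.7 and 59.9 FPKM in WT baseline, 51.3, 27.8 and 68.0 FPKM in Tet2-/- baseline and 47.5, 27.0 and 48.4 FPKM in WT IR libraries, groups that overlapped. Tet2-/- IR libraries had 20.2, 6.43 and 16.7 FPKM, below all others. It fell with IR in Tet2-/- kidneys by 1.999 on the log2 scale (SE 0.49, adjusted p = 0.0145), while in WT the value was −0.62 (SE 0.34, adjusted p = 0.327). Between genotypes after IR the value was −1.59 (SE 0.47) at an adjusted p of 0.0784, and the interaction was −1.33 (SE 0.66, adjusted p = 0.221), so the IR effects were not shown to differ.

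Slc22a7, OAT2, had the widest range of the members relative to its lowest library. WT baseline libraries had 52.2, 191 and 201 FPKM and Tet2-/- baseline libraries 360.0, 307 and 179.8 FPKM. WT IR libraries had 42.0, 46.5 and 55.5 FPKM and Tet2-/- IR libraries 16.5, 9.65 and 3.18 FPKM. WT baseline replicate 1, the one WT baseline library with few adipocyte transcripts, lay within the WT IR range. IR in Tet2-/- kidneys lowered Slc22a7 34.8-fold (log2 −5.12, SE 0.61, adjusted p = 0.000718), the strongest fall among the members. In WT the log2 fold change was −1.68 (SE 0.48, adjusted p = 0.107), and −0.18 without the libraries with adipocyte genes. The genotypes differed by 1.01 (SE 0.49, adjusted p = 0.464) at baseline, 2.53 without those libraries, and by −2.42 (SE 0.53, adjusted p = 0.0356) after IR. With 1 library left out, the genotype difference after IR was lost in 4 of 6 fits. The interaction was −3.40 (SE 0.81, adjusted p = 0.0278).

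Slc22a19, OAT5, was lowest in Tet2-/- IR and highest in Tet2-/- baseline libraries. It had 82.3, 62.2 and 88.2 FPKM in WT baseline and 145, 150.1 and 104 FPKM in Tet2-/- baseline libraries, which did not overlap, with a log2 difference of 0.87 (SE 0.19, adjusted p = 0.224). After IR it had 71.8, 42.6 and 33.8 FPKM in WT and 11.6, 7.17 and 1.77 FPKM in Tet2-/- libraries. The fall with IR in Tet2-/- kidneys was 23.5-fold (log2 −4.55, SE 0.62, adjusted p = 0.0012). In WT the log2 fold change with IR was −0.73 (SE 0.27, adjusted p = 0.176). The genotype difference after IR was −2.95 (SE 0.63, adjusted p = 0.0334) and the interaction −3.78 (SE 0.71, adjusted p = 0.0105). With 1 library left out, this genotype difference was no longer called in 5 of 6 edgeR fits (adjusted p up to 0.0974).

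Slc22a2, OCT2, had the smallest adjusted p of the members with IR in Tet2-/- kidneys, between genotypes after IR and in the interaction. It had 175, 172 and 169 FPKM in WT baseline and 248, 239 and 202 FPKM in Tet2-/- baseline libraries, which did not overlap, with a log2 difference of 0.51 (SE 0.13, adjusted p = 0.242). WT IR libraries had 168, 143 and 128 FPKM and Tet2-/- IR libraries 70.0, 51.5 and 54.0 FPKM. The groups after IR did not overlap either. IR lowered it 4.68-fold in Tet2-/- kidneys (log2 −2.23, SE 0.19, adjusted p = 0.000246), against a log2 fold change of −0.30 (SE 0.13, adjusted p = 0.234) in WT. After IR it was 2.67-fold lower in Tet2-/- than in WT kidneys (log2 −1.41, SE 0.19, adjusted p = 0.0125), and the interaction was −1.89 (SE 0.23, adjusted p = 0.0038).

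Slc22a4, OCTN1, was the lowest member at baseline. Its 9 libraries outside the Tet2-/- IR group ranged from 21.5 to 30.1 FPKM, and Tet2-/- IR libraries had 19.1, 14.7 and 15.4 FPKM. The difference with IR in Tet2-/- kidneys was −0.94 (SE 0.14, adjusted p = 0.0019) and the difference between genotypes after IR −0.69 (SE 0.15, adjusted p = 0.0372), both under the fold limit. The interaction was −0.72 (SE 0.22, adjusted p = 0.0659).

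Slc22a5, OCTN2, moved least between genotypes after IR. It had 75.6, 58.6 and 80.3 FPKM in WT baseline, 57.2, 65.1 and 83.2 FPKM in Tet2-/- baseline and 51.7, 53.6 and 65.0 FPKM in WT IR libraries. Tet2-/- IR libraries had 49.1, 32.0 and 46.5 FPKM, below the lowest WT IR library in all 3. IR in Tet2-/- kidneys gave −0.94 (SE 0.25, adjusted p = 0.0187), under the fold limit, and −0.39 (SE 0.20, adjusted p = 0.294) in WT. The difference between genotypes after IR was −0.51 (SE 0.25, adjusted p = 0.221) and the interaction −0.50 (SE 0.34, adjusted p = 0.367).

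Slc22a12, URAT1, was the most abundant member in all 12 libraries. It had 488, 602 and 483 FPKM in WT baseline and 531, 572 and 634 FPKM in Tet2-/- baseline libraries, which overlapped. WT IR libraries had 822, 699 and 529.7 FPKM and Tet2-/- IR libraries 355, 252 and 173 FPKM, without overlap. IR lowered it 2.68-fold in Tet2-/- kidneys (log2 −1.42, SE 0.28, adjusted p = 0.0056), while the log2 fold change in WT was 0.31 (SE 0.19, adjusted p = 0.373). The genotype difference after IR was −1.49 (SE 0.30, adjusted p = 0.0289), or −1.30 (adjusted p = 0.0601) without Tet2-/- IR replicate 3, and the interaction −1.69 (SE 0.34, adjusted p = 0.0142). That was 1 of 5 losses of this genotype difference among the 6 fits with a library left out.

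Slc22a13, OAT10, reached the lowest level among the 9 genes. It had 43.9, 31.3 and 39.8 FPKM in WT baseline and 78.7, 54.0 and 36.7 FPKM in Tet2-/- baseline libraries, which overlapped. WT IR libraries had 57.7, 23.2 and 20.9 FPKM and Tet2-/- IR libraries 6.10, 2.37 and 0.770 FPKM, far below. It fell 21.9-fold with IR in Tet2-/- kidneys (log2 −4.45, SE 0.71, adjusted p = 0.00235), and was 11.7-fold lower than in WT after IR (log2 −3.55, SE 0.76, adjusted p = 0.0348), or at −3.11 (adjusted p = 0.0547) without Tet2-/- IR replicate 3. The genotype difference after IR was lost in 4 of the 6 fits with a library left out. In WT the log2 fold change with IR was −0.26 (SE 0.37, adjusted p = 0.721), and the interaction was −4.15 (SE 0.86, adjusted p = 0.0158).

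The proximal tubule marker sum was lower after IR in both genotypes and lowest in Tet2-/- IR libraries. The 8 markers (Lrp2, Cubn, Slc34a1, Slc5a2, Slc5a12, Slc27a2, Slc6a19 and Miox) summed to 3958 to 4546 FPKM in WT baseline, 3978 to 4780 in Tet2-/- baseline, 1919 to 2531 in WT IR and 695 to 1204 in Tet2-/- IR libraries. With IR in Tet2-/- kidneys 5 of 8 fell, among them the endocytic receptor gene Lrp2 (log2 −1.94) and the phosphate transporter gene Slc34a1 (log2 −3.08), and 3 of 8 were lower than in WT after IR (Lrp2, Cubn and Slc34a1). In WT 1 of 8 fell with IR, Miox (log2 −1.77). Slc5a2, Slc5a12 and Slc6a19 passed in none of these comparisons, and between genotypes after IR Slc6a19 gave 0.44 and Slc5a2 0.08 on the log2 scale. The 3 markers of the S3 segment (Slc7a13, Cyp7b1 and Atp11a) fell with IR in both genotypes, with a summed FPKM of 643 to 790 in WT baseline, 706 to 930 in Tet2-/- baseline, 190 to 318 in WT IR and 88.9 to 100.3 in Tet2-/- IR libraries. The 5 tubular injury markers (Havcr1, Lcn2, Krt20, Vcam1 and Sox9) summed to at most 26.6 FPKM at baseline, to 316 to 1096 in WT IR and to 2786 to 2988 in Tet2-/- IR libraries. The 3 neutrophil markers (S100a8, S100a9 and Ly6g) summed to at most 2.21 FPKM at baseline, to 3.66 to 8.29 in WT IR and to 60.6 to 112 in Tet2-/- IR libraries. The 4 male-biased kidney genes (Cyp4b1, Cyp2j13, Cyp2d9 and Slc22a30, the last also a gene of the family) fell with IR in Tet2-/- kidneys, and summed to 1562 to 1800 FPKM in WT baseline, 1047 to 1822 in Tet2-/- baseline, 832 to 1041 in WT IR and 318 to 722 in Tet2-/- IR libraries. In WT 3 of these 4 fell with IR as well, all but Cyp2d9. Of the 4 female-biased kidney genes, 3 also fell with IR in Tet2-/- kidneys (Slc7a12, Prlr and Cyp2a4) and 1 rose (Cyp4a14). In WT 0 of these 4 fell and 1 rose, Cyp4a14. The 4 markers of the thick ascending limb (Umod, Slc12a1, Cldn16 and Kcnj1) summed to 387 FPKM in Tet2-/- IR replicate 3, against 2112 and 2616 in the other 2 libraries of its group. The podocyte genes Nphs1 (log2 1.41) and Podxl (log2 1.64) rose with IR in Tet2-/- kidneys. None of these sums was at 0 in a group, and their part in the results on the Slc22 genes was not tested.

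Set against the proximal tubule marker sum of the same library, the summed FPKM of the 9 genes was 31.9% ± 3.77 (SD, n = 3) in WT baseline, 38.1% ± 4.27 in Tet2-/- baseline, 65.3% ± 11.9 in WT IR and 62.1% ± 18.9 in Tet2-/- IR libraries. These ratios are given as a description without a test. Most of the marker sum came from 3 genes, Slc27a2, Slc34a1 and Miox, with group means of 1628, 1463 and 904 FPKM of 4291 in WT baseline libraries. Lrp2 and Cubn, at 83.8 and 25.1 FPKM there, had means of 72.0 and 29.8 FPKM in WT IR, so the sum was lower in WT IR without each marker being lower. Slc22a6 was at 5.64% and 4.64% of the marker sum in the WT and Tet2-/- baseline groups and at 17.7% and 19.6% after IR, and Slc22a12 at 12.3% and 13.5% and then at 30.2% and 27.1%. Slc22a5 was at 1.66% and 1.59% at baseline and at 2.49% and 4.28% after IR. Slc22a2 was at 4.02% and 5.41% and then at 6.44% and 6.01%, Slc22a8 at 1.39% and 1.12% and then at 1.75% and 1.37%, and Slc22a4 at 0.622% and 0.619% and then at 1.09% and 1.69%. Slc22a7 was at 3.53% and 6.72% at baseline and at 2.12% and 1.01% after IR. Slc22a19 (1.80% and 3.15%, then 2.14% and 0.718%) and Slc22a13 (0.889% and 1.34%, then 1.45% and 0.306%) were lowest in Tet2-/- IR kidneys too. With IR in Tet2-/- kidneys the S3 markers Slc7a13 (log2 −5.51), Cyp7b1 (−5.36) and Atp11a (−2.07) fell by amounts on both sides of those of Slc22a7 (−5.12), Slc22a19 (−4.55) and Slc22a13 (−4.45).

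**Figure D3:**
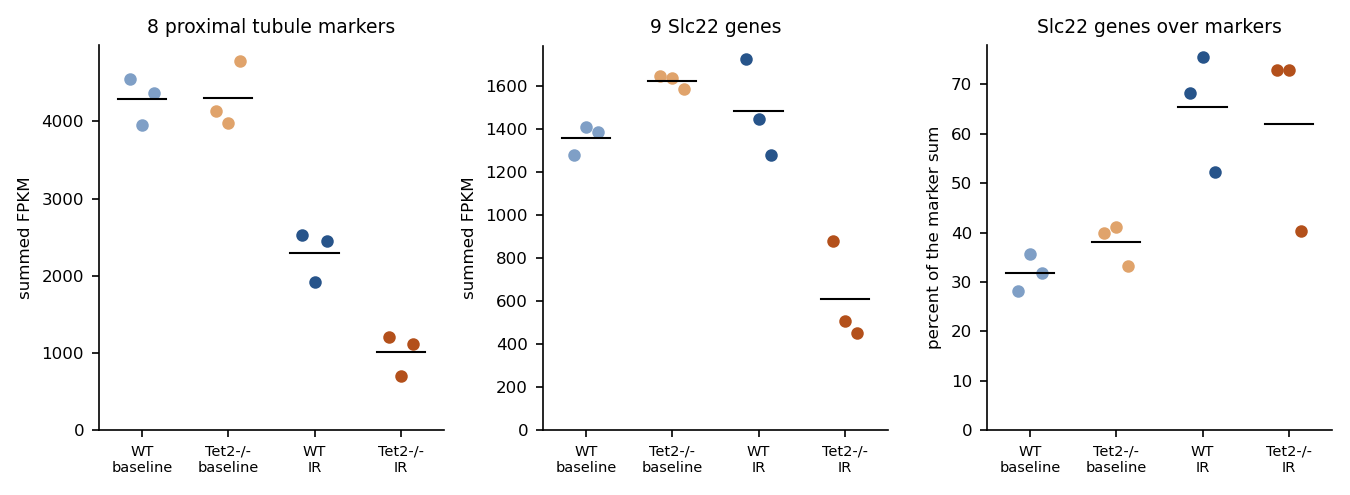
Summed FPKM of the 8 proximal tubule markers (left), of the 9 Slc22 genes (middle) and the second as a percentage of the first (right), with 1 point per library and a line at each group mean. The marker sum is lower in both IR groups than at baseline, the Slc22 sum is lowest in Tet2-/- IR libraries at 451 to 878 FPKM, and the percentage is 40.3% to 73.0% there and 52.3% to 75.5% in WT IR.

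Other genes of the family and its pathway were taken from fixed lists of symbols. Their counts stand against the shares over all genes, of which 11.6% fell and 12.7% rose with IR in Tet2-/- kidneys, 3.85% were lower in Tet2-/- than in WT after IR and 5.38% had a negative interaction. Of 16 other Slc22 genes, 14 were tested and 10 fell with IR in Tet2-/- kidneys (edgeR). The largest falls were those of Slc22a27 (log2 −4.63), Slc22a26 (−4.62), Slc22a22 (−4.32) and Slc22a28 (−4.02), and 1 gene, Slc22a15, rose (1.43). Slc22a27 was near the floor, at 0.526 to 0.727 FPKM in Tet2-/- baseline libraries and 0.015 to 0.04 FPKM in Tet2-/- IR libraries. Its counts in Tet2-/- IR libraries were 7, 11 and 3. Slc22a15 had at most 0.978 FPKM in any library. In WT kidneys IR lowered 2 of the 14, Slc22a28 (−1.49) and Slc22a30 (−1.12). After IR 7 of the 14 were lower in Tet2-/- than in WT kidneys, led by Slc22a26 (−3.18), Slc22a27 (−2.96), Slc22a22 (−2.57) and Slc22a28 (−1.99), with a list median of −1.30 against 0.04 over all genes. Slc22a26 to Slc22a30 lie on chromosome 19 with Slc22a19. Of these genes only Slc22a19 was searched for near copies (77.0% with Slc22a27), so a split of reads among the others was not checked. The interaction was negative for 8 of the 14, among them Slc22a26 (−3.50), Slc22a27 (−3.47), Slc22a22 (−2.55) and Slc22a28 (−2.49).

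Efflux and urate transporters, which pass on what the Slc22 uptake carriers bring in, split in direction. With IR in Tet2-/- kidneys 5 of 12 fell, led by Slc17a3 (log2 −2.27), an anion and urate transporter gene, Slc16a9 (−2.08), Slc47a2 (−2.07) and Slc17a1 (−1.71). The fifth was Slc47a1 (−1.57), which, like Slc47a2, encodes a proton-coupled organic cation exchanger. Slc47a2 was near the floor, at 0.203 to 0.481 FPKM in Tet2-/- baseline and 0.079 to 0.105 FPKM in Tet2-/- IR libraries. Of the 5 genes of ATP-driven pumps 4 rose, namely the P-glycoprotein genes Abcb1a (2.21) and Abcb1b (1.97), Abcc4 (1.27) and Abcc2 (1.20), and the fifth, Abcg2, gave 0.03 (adjusted p = 0.949). The list median was −0.17. Between genotypes after IR 2 of 12 were lower, Slc16a9 (−2.38) and Slc17a3 (−1.29). The interaction was positive for Abcc4 (2.001) and negative for Slc16a9 (−2.20), Slc17a3 (−1.46) and Slc47a1 (−1.08). In WT kidneys IR changed 0 of 12 past the limits, although the values of Abcc2 (1.23, adjusted p = 0.187), Abcb1a (1.17, adjusted p = 0.157) and Abcb1b (1.01, adjusted p = 0.259) were above 0 there too. The interactions of these 3 pump genes were not called (0.0073, 1.09 and 1.01).

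Of the 7 genes for the dicarboxylate and sodium gradients that drive anion exchange, 3 fell with IR in Tet2-/- kidneys. They were Slc5a8, a sodium-coupled monocarboxylate carrier gene (log2 −3.36), and the sodium-dicarboxylate cotransporter genes Slc13a2 (−2.63) and Slc13a3 (−1.28). The same 3 genes were lower than in WT after IR (−2.71, −2.32 and −1.78) and had a negative interaction (−2.67, −2.91 and −1.74). In WT kidneys 0 of 7 were called.

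Of 8 Oatp genes, a second family of organic anion transporters, 4 fell with IR in Tet2-/- kidneys (Slco4c1 −3.03, Slco2b1 −2.45, Slco1a1 −1.89 and Slco1a6 −1.03) and the prostaglandin transporter gene Slco2a1 rose (2.18). Slco1a1 also fell in WT (−1.12), Slco4c1 was lower in Tet2-/- than in WT kidneys after IR (−3.89), and 0 of 8 passed in the interaction. Slco4c1 was low, at 0.475 to 0.997 FPKM in Tet2-/- baseline and 0.029 to 0.171 FPKM in Tet2-/- IR libraries. Of 9 scaffolds and regulators, 3 fell with IR in Tet2-/- kidneys, among them Pdzk1, which encodes an apical scaffold that binds transporters (−2.22), and the scaffold gene Slc9a3r1 (−1.10). After IR 2 of 9 were lower than in WT, among them Pdzk1 (−1.64). The interaction was negative for 3 of 9, among them Pdzk1 (−1.84) and Slc9a3r1 (−1.13). Of 7 carnitine genes 1, a share near the 11.6% of all genes, fell with IR in Tet2-/- kidneys, the carnitine synthesis gene Aldh9a1 (−1.33). It was lower than in WT after IR (−1.38) and had a negative interaction (−1.40). In WT kidneys IR called 0 of 9 regulators and 0 of 7 carnitine genes, and at baseline 0 genes of these 6 lists differed between genotypes.

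**Figure D4:**
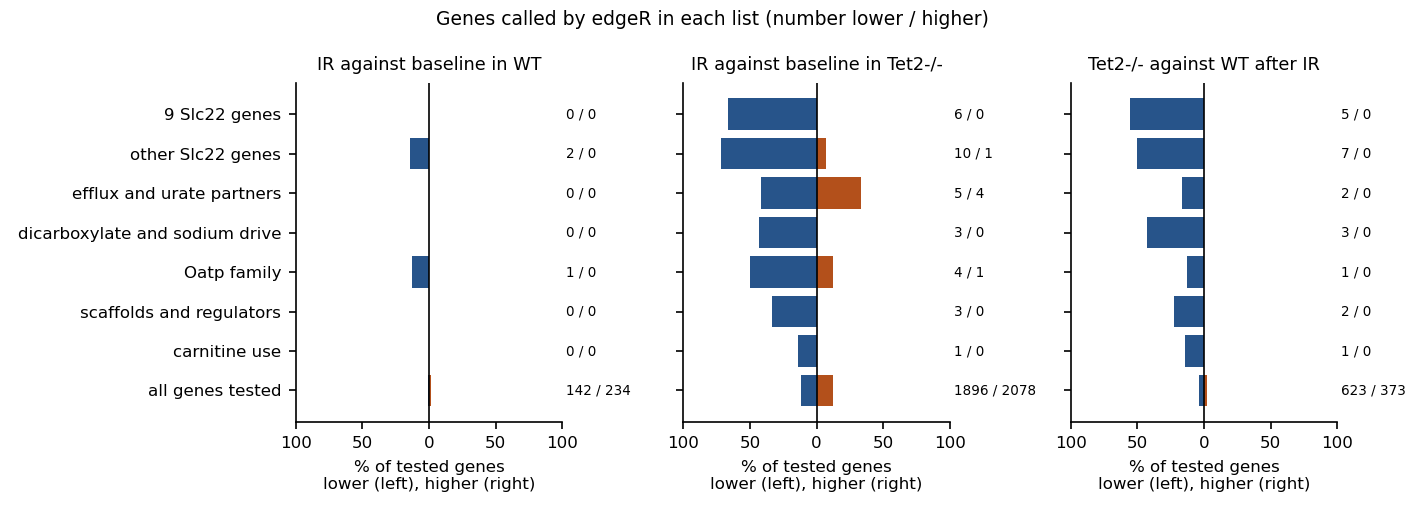
Percentage of the tested genes of each list called lower (left of 0, blue) or higher (right of 0, orange) by edgeR, with the numbers lower and higher beside each bar, for IR in WT, IR in Tet2-/- and the genotypes after IR. In Tet2-/- after IR 6 of 9 members and 10 of 14 other Slc22 genes were lower, against 1896 of 16358 genes tested, and the efflux list holds both 5 lower and 4 higher genes.

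Profiles were compared over the 12 libraries as the root mean square difference of log2(FPKM + 0.1) after centring each gene on its mean, among 12214 genes with a mean of at least 1 FPKM. Among the members, Slc22a4 and Slc22a5 were closest (0.197), both with small ranges, and Slc22a6 and Slc22a7 farthest apart (2.03). The neighbours Slc22a6 and Slc22a8 differed by 0.898. The nearest gene to Slc22a19 was Slc22a13 (0.34), followed by Slc22a26 (0.37) and Sec14l3 (0.49), and to Slc22a13 they were Slc22a19 (0.34), Methig1 (0.47) and Akr1c18 (0.49). Slc22a7 had only distant ones, Gm6300 (0.56), Slc22a19 (0.70) and Erich6b (0.71). Slc22a6 was nearest to Pcx (0.26), Eci1 (0.27) and Ddc (0.29), and Slc22a8 to Ces1d (0.25), with Gnmt (0.38) as the third. Slc22a12 was nearest to Myh14 (0.22), Notum (0.23) and L3hypdh (0.25). Slc22a2 was nearest to Acy3 (0.16), Prepl (0.18) and Gcdh (0.19), Slc22a4 to Uqcrc2 (0.086), Sun3 (0.090) and Grsf1 (0.091), and Slc22a5 to Cpq (0.15), Fbxo8 (0.16) and Echs1 (0.17). A gene with a small range lies close to many others on this measure.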

How the data were processed

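Whole-kidney RNA from 12 mice was sequenced, 3 per group, and groups were taken from the sample titles. Per the labels and methods, the authors used STAR (alignment, mm9) and HOMER (counting, RefSeq transcripts), with versions not given in the sources used here. They deposited unnormalized expected counts, which rise in steps of 0.5 (38.7% not whole) and were rounded, although whole counts had been assumed, and FPKM, the deposited counts scaled for transcript length and depth. The files held 34600 transcripts of 24421 symbols, and coordinates were read as counted from 1, because 17108 of 30203 transcripts began at an annotated start. Depth is given in the report. Reads of 1 library are not independent mice, and nothing says more than that libraries are separate mice of a group.

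Each comparison used its own 6 libraries, TMM, edgeR's filter and quasi-likelihood F test, with Benjamini-Hochberg adjustment over all genes tested. The interaction used 12 libraries. A call needed an adjusted p under 0.05 and, except in the interaction, a log2 fold change above 1 or below −1. R 4.3.3 with edgeR 4.0.16, DESeq2 1.42.0 and limma 3.58.1, BLAST 2.17.0, and Python 3.11.15 with pandas 2.3.3 and matplotlib 3.10.9 were used. On simulated data edgeR recovered 156 of 197 genes changed by a log2 value of 2 with 8 others called, over 16464 genes made from the Tet2-/- libraries, and 0 with none changed. Recovery was 159 of 194 for IR in WT and 164 of 198 between genotypes at baseline. It was lower between genotypes after IR, at 142 of 197, and in the interaction, at 125 of 200.

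The members, the lists of related genes and the tests were chosen with earlier results of these data known. The text names all 9 members, in each list at most the 4 called genes with the largest change per comparison, and for each member the 3 genes with the most similar profile. Some genes that this rule names are not reported here. Further called genes of a list, Nrxn2, the markers and the pseudogene were named after their values were seen. Same-numbered libraries are different mice. Their deviations from the group means correlated at 0.3723, 0.3099 and 0.3158 for IR in WT, so the number was taken there, from the data alone, as a pairing. In the other comparisons at least 1 correlation was under 0.1 (lowest −0.243). Alternatives were DESeq2, library sizes alone, no filter, limma on log2(FPKM + 1) and log2(FPKM + 0.1), counts summed over transcripts, the replicate block, all 12 libraries in 1 fit, and each library left out. The fit without the 3 libraries with adipocyte genes was added after the data were seen.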

Additional observations from a re-analysis of the deposited data

Results flagged for a closer look

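The IR effects of the genotypes differed, by the interaction term of edgeR over 12 libraries, for 5 of the 9 genes, where 9.16% of all genes were called. The difference of log2 fold changes was −4.15 for Slc22a13, −3.78 for Slc22a19, −3.40 for Slc22a7, −1.89 for Slc22a2 and −1.69 for Slc22a12. All 9 genes were lower in every Tet2-/- IR library than in every WT IR library, as were 14.6% of all genes, so this does not set these 5 apart. Without the 3 libraries with adipocyte genes the adjusted p of these 5 lay between 0.0674 and 0.110, in a fit that called 3 of 17166 genes. Groups of 3 libraries were not tested for single outliers.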

How the results depend on the processing

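The count of members called with IR in WT, 0, was 1 with DESeq2, 1 with the replicate block and 0 to 1 with a library left out. Of all genes 6.13%, 6.16% and 0.542% to 3.37% were called in those fits, against 2.35% in the main fit. With IR in Tet2-/- kidneys, 6, it was 6 to 8 over all alternatives, where 13.8% to 26% of all genes were called, against 24.3% in the main fit. At baseline it was 0 throughout. After IR, 5, it was 1 to 5 with a library left out, 3 without the libraries with adipocyte genes, 7 with DESeq2, 7 with all 12 libraries in 1 fit and 6 with the replicate block. Of all genes 10.2% were called there with DESeq2, 9.52% with all 12 libraries and 6.75% with the replicate block, against 6.15% in the main fit. The interaction count, 5, was 4 to 7 with a library left out, 7 with the replicate block and 0 without the libraries with adipocyte genes, where fewer libraries were fitted. With the replicate block 11% of all genes had a called interaction, against 9.16% in the main fit. Outside IR in WT, where the numbers were taken as a pairing, the replicate block changed no count of members by over 1.5 times. Directions turned for 2 small IR effects, Slc22a13 in WT (−0.84 to 0.0028) and Slc22a6 in Tet2-/- (−0.84 to 0.020) with a library left out, and for differences near 0 at baseline. There Slc22a4 was −0.0053 and −0.0049 with limma at pseudocounts of 1 and 0.1, −0.023 without the libraries with adipocyte genes and −0.065 to 0.17 with a library left out. Slc22a5 was −0.040 with library sizes alone, −0.065 and −0.066 with limma, −0.0027 with 12 libraries, −0.038 without the libraries with adipocyte genes and −0.15 to 0.16 with a library left out. With a library left out Slc22a6 was −0.38 to 0.013 and Slc22a8 −0.54 to 0.079. Of the other values of single members, 655 kept their side, 28 no longer passed and 21 newly passed, and the cause was not tested. Over all genes DESeq2 called more than edgeR: 982 against 376 for IR in WT, 320 against 2 at baseline, 1654 against 996 after IR and 2808 against 1534 in the interaction.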
